A study of Mus musculus with 2 samples.

Results

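The noncoding RefSeq genes on a mouse expression array were compared between 2 ATDC5 lines. A gene belonged to the set when the array's annotation gave its probe an accession starting with NR_, the RefSeq prefix for a transcript with no annotated protein. Genes that also have a coding transcript were left out, which removed 16 genes. The array held 1051 such noncoding genes. Coding genes with a usable probe numbered 19801, and 1042 of the 1051 noncoding genes kept one. Of these, 498 (47.8%) were measured, that is, called well above background by the scanner on at least 1 array, and the other 544 were not. The same share was 70.8% of coding genes and 69.1% of the 4603 features that the array names only by genome position.

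ATDC5 is a mouse line of the chondrocyte lineage, and chondrocytes are the cells that make cartilage. Both lines were stable and made with lentivirus, 1 to overexpress GFP, a fluorescent protein that serves as the control, and 1 to overexpress HES1, a transcriptional repressor of the Notch pathway. The sources used here do not say whether a line was a clone or a pool, nor which promoter drove the transgene. Each line was grown for 3 days as a monolayer on 60 mm dishes, and 0.1 µg of its RNA was labelled with Cy3 and hybridised to 1 single-colour Agilent array. There was thus 1 array per line and no replicate, no p-value is given, and "higher" and "lower" compare these 2 samples. A gene is called higher or lower in the sample labelled HES1 where its signal differed by at least 2-fold.

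Noncoding genes act mostly through the RNA itself. Long noncoding RNAs can scaffold nuclear bodies, recruit chromatin regulators or act on a neighbouring gene by being transcribed, small structural RNAs serve splicing, ribosome and telomere synthesis, and transcribed pseudogenes are copies of coding genes that no longer make the protein. In cartilage the best known examples are Rmrp, the RNA of RNase MRP, which is mutated in cartilage-hair hypoplasia, and microRNA precursors such as Dnm3os, which is needed for skeletal development.

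Promoters of 7 members that passed 2-fold are shown because the results below turn on them. The first 3 were picked for holding a match to an interferon-responsive site. Morrbid had the largest difference on both arrays among members with a promoter in the RefSeq table, and the last 3 start beside a coding gene that was also past 2-fold. Each runs 5′ to 3′ from 250 bases before to 50 bases after the RefSeq start, on GRCm38.p6. AW011738 lies at chr4:156203034-156203333 (+), 1110046J04Rik at chr13:33935782-33936081 (+), Rab10os at chr12:3235541-3235840 (+), Morrbid at chr2:128429302-128429601 (-), BC051226 at chr17:33909129-33909428 (-), Gm5577 at chr6:87981433-87981732 (+) and AI606473 at chr3:154330571-154330870 (+). Capitals mark matches, on either strand, to the core of the interferon-stimulated response element, GAAANNGAA, or to the STAT site TTCNNNGAA, where N is any base.
AW011738: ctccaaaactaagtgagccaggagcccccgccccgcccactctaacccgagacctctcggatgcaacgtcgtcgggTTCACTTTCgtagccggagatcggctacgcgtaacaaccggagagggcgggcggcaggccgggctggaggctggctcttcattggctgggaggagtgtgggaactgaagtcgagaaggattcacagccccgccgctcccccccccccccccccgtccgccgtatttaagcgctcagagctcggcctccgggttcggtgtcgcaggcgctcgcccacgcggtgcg
1110046J04Rik: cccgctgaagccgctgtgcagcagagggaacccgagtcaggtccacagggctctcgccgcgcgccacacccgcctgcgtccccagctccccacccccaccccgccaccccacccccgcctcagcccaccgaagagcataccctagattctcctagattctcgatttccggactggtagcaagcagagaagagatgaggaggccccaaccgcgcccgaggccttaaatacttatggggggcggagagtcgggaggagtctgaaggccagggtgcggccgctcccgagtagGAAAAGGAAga
Rab10os: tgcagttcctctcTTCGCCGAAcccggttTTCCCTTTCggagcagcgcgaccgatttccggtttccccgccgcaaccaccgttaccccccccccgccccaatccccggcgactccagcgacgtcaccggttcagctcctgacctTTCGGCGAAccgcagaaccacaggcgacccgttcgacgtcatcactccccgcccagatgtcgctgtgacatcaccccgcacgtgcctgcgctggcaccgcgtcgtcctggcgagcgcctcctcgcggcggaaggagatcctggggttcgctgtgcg
Morrbid: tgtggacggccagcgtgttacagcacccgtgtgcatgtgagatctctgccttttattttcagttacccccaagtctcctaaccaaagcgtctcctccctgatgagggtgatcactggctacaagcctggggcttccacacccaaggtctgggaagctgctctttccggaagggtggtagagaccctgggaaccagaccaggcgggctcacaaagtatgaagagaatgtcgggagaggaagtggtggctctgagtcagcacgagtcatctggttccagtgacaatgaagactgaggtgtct
BC051226: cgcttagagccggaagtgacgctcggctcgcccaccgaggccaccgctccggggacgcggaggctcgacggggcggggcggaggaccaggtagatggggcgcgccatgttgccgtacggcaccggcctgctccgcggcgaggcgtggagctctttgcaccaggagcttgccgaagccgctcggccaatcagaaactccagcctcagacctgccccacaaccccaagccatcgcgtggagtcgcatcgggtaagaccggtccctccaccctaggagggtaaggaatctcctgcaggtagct
Gm5577: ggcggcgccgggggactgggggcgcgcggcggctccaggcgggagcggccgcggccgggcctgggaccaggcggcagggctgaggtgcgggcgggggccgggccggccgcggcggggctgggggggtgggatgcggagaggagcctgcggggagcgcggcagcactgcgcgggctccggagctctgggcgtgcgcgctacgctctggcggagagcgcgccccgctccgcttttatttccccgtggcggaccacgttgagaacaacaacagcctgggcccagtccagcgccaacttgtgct
AI606473: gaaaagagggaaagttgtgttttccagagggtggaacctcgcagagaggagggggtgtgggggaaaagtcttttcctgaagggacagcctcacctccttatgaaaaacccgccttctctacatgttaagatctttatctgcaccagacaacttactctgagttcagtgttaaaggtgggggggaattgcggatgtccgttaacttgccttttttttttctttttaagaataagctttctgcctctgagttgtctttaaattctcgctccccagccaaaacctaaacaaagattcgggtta
The first of these holds 1 match to the interferon element, which begins at -174 relative to the start, and the second holds 1 that begins at 39. Rab10os holds 1 match to the interferon element and 2 to the STAT site. The other 4 windows hold neither. Among called members, the interferon element was also in windows not shown, of D630029K05Rik, which was higher (1.19), and of Dlx6os1, which was lower (-1.42).

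Among the members that were higher, the interferon element had a share near that of all promoters and below that of coding genes that were higher, and the STAT site had a share above both. Among 70 members higher in HES1, 42 had a promoter in the RefSeq table, and 4 of the 42 (9.52%) held the interferon element, against 9.76% of all 27025 genes with a promoter in the table, each counted once over its listed starts, 8.59% of those of measured coding genes and 17.4% of the 1166 promoters of coding genes that were higher. The element was in 1 of the 14 promoters (7.14%) of members that were lower, and in 7.73% of those of members within 2-fold. Of 36 coding interferon-response genes on the array, 28 had a promoter in the RefSeq table, and 16 of them (57.1%) held it. The STAT site was found in 8 of the 42 (19%) and in none of the 14 promoters of members that were lower. This compares with 9.55% of all promoters, 9.78% of those of measured members and 8.64% of those of members within 2-fold. For measured coding genes the share was 8.48%, and for coding genes that were higher 11.6%. The 19% rests on 8 genes and was not tested. The class C site bound by HES repressors, CACGNG, was in 14 of the 42 (33.3%), and in 4 of the 14 promoters (28.6%) of members that were lower. Its share was 30.3% over all promoters, 39.9% over measured members, 41.8% over members within 2-fold, 42.8% over measured coding genes and 32.2% over coding genes that were higher. The N box, CACNAG, was in 19 of the 42 (45.2%) and in 7 of the 14 (50%), against 46.1% of all promoters, 40.2% of those of measured members and 45.2% of those of measured coding genes. These patterns are short, HES class C and N box windows can overlap the other matches, and a match is a stretch of letters and not a shown site.

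Signals are Agilent processed intensities scaled so that the 75th percentile of each array is 1057.2. On the GFP array 54.6% of all spots were well above background, on the HES1 array 56.6%, and no spot was saturated. All 35 measured genes of an interferon-response list of coding genes were higher in HES1, with a median log2 difference of 6.12, and the part of this shift in the values of the noncoding genes was not tested. The scanner did not call the probe for Hes1 itself well above background, at 10.2 and 10.3, and its place relative to the introduced sequence is not given in the sources used here, so the label could not be checked with it. Of 10 cartilage markers 8 were measured, with Col2a1, the main cartilage collagen, at 13796 and 7379 and Sox9 at 3683 and 3227. The scaled differences of these 8 had a median of -0.63, and 1 of the 8, Sox6, was at least 2-fold lower and above background on the GFP array only. Of 6 osteoblast markers 5 were measured and 2 were lower, with a median of -0.97. Of 5 macrophage markers on the array 2 were measured: Csf1r at 1978 and 2030, and Ptprc on the HES1 array only at 47.8, while Adgre1, Tyrobp and Laptm5 were measured on neither. In RNA from whole cultures, fewer cells of a type and less RNA per cell cannot be told apart.

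Most measured noncoding genes lay within 2-fold. Of 498, 70 (14.1%) were higher in HES1, 22 (4.42%) were lower and 406 were within 2-fold, with a median log2 difference of 0.01 and quartiles of -0.30 and 0.48. The same rule called 11.0% of the 14020 measured coding genes higher and 4.97% lower, 8.05% and 6.16% of the 3180 measured position-named features, and 10.0% and 5.67% of all 23471 measured features. The share of members called higher differed with signal. Of the 249 members with a mean signal below 221.6, 50 (20.1%) were higher, against 25.5% of 3135 coding genes below the same signal. Of the 249 above it, 20 (8.03%) were higher, against 6.89% of 10885 coding genes. The lower shares were 6.43% and 2.41% of the members, against 6.99% and 4.39% of the coding genes. No test was made of these shares, since each line is 1 sample.

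**Figure D1:**
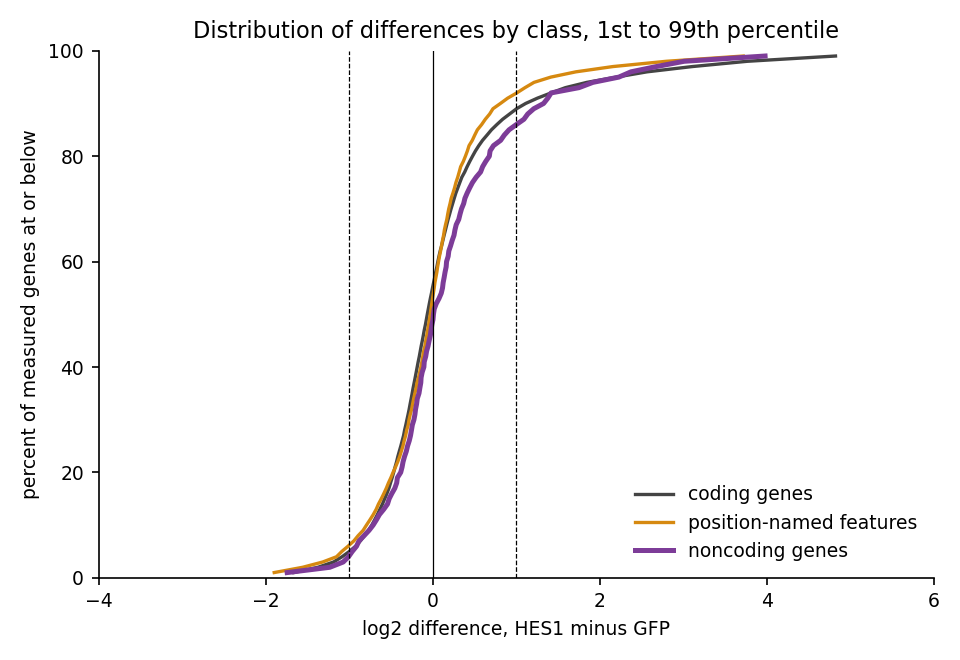
Cumulative percent of measured genes (vertical axis) against the log2 difference HES1 minus GFP (horizontal axis), for 498 noncoding genes, 14020 coding genes and 3180 position-named features, drawn from the 1st to the 99th percentile; dashed lines mark 2-fold. The noncoding curve lies furthest right at the 10th percentile (-0.71, against -0.73 for coding genes and -0.79 for position-named features), the 50th (0.01, -0.06 and -0.03) and the 90th (1.33, 1.11 and 0.81). The order is not the same throughout. Coding genes lie further right than noncoding genes at the 1st percentile (-1.66 against -1.74) and, by little, at the 7th (-0.87 against -0.88) and 8th. They also do so from the 96th to the 99th (4.82 against 3.98 at the 99th).

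Dim genes also set how firmly a call can be read. A gene well above background on 1 array has no measured level on the other, so a bound was used, which sets its bright signal against its own dim signal or against the lowest signal called well above background on that other array (38.1 on GFP and 39.0 on HES1), whichever was higher. By bounds 54 members (10.8%) were higher and 15 (3.01%) lower, against 9.49% and 4.52% of coding genes. Of the 498, 419 were measured on both arrays, 52 on the HES1 array only and 27 on the GFP array only. Among the 419, 33 (7.88%) were higher and 13 (3.10%) lower, against 7.03% and 4.47% of the coding genes measured on both. The scanner's own error, carried to the log2 difference, had a median of 0.22 over the members. All 46 calls made on both arrays exceeded 2 such errors, as did 74 of all 92 calls. For the 46 this follows largely from the 2-fold rule and gives the calls no separate support. Errors of members measured on both arrays were small against that rule, such as 0.41 for the dim pseudogene Gm7337. The scanner's error covers the spot and not the culture. Of 9 called members with 2 or more measured probes, 2 had every such probe past 2-fold the same way, H2-K2 and Platr26, and no member had probes past 2-fold in opposite directions.

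**Figure D2:**
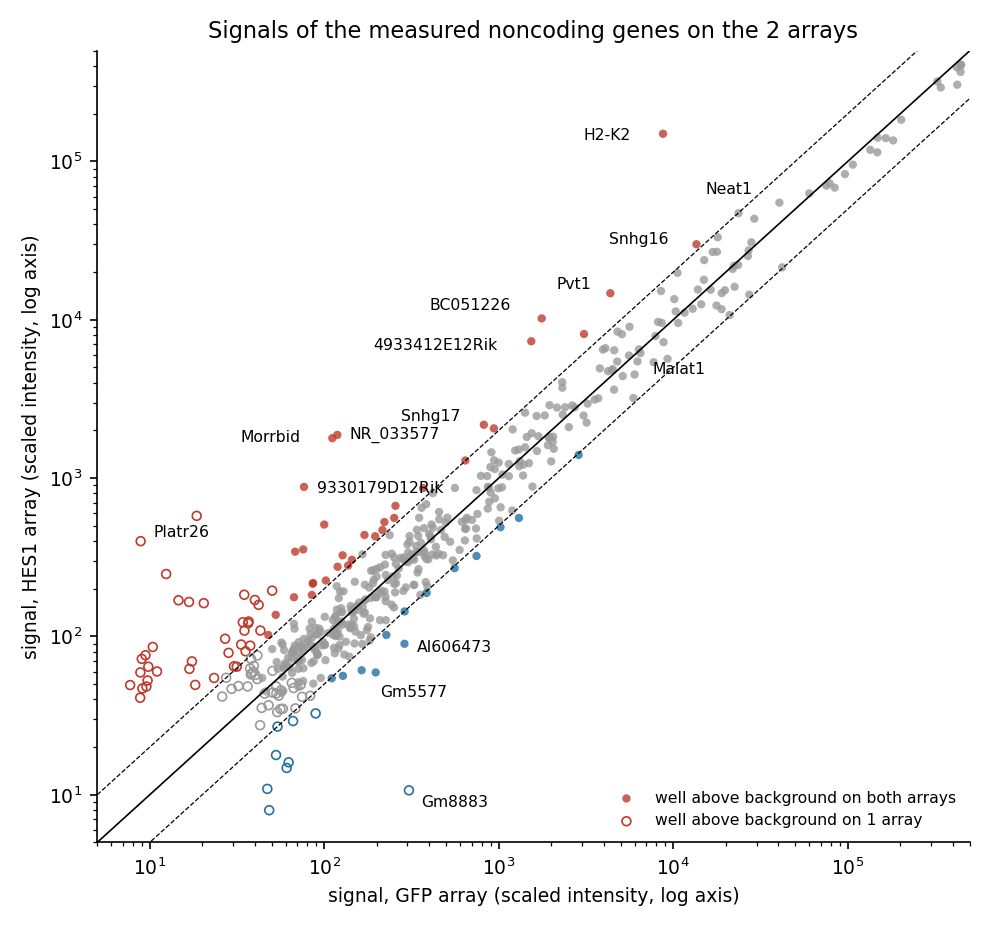
Scaled signal on the HES1 array against the GFP array, both log axes, for the 498 measured noncoding genes; filled points were well above background on both arrays and open points on 1, red and blue mark at least 2-fold higher and lower in HES1, and dashed lines mark 2-fold. Red points stand mostly at low GFP signal. Brighter ones include Snhg16 at 13583 and 29975, H2-K2 at 8735 and 149467, Pvt1 at 4361 and 14707 and BC051226 at 1762 and 10197.

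Genes that host small nucleolar RNAs lay mostly above 0. These genes are spliced like coding genes, and their introns release the small nucleolar RNAs that guide modification of ribosomal RNA. All 11 on the array were measured on both arrays. Of the 11, 2 were higher and none was lower, where 10.0% of all measured features were higher and 5.67% lower. A count of 2 is too small to set apart from that share. In all 8 lay above 0, with a median log2 difference of 0.58 against 0.01 for all members and -0.08 for all measured features. Snhg17 was 821 for the GFP line and 2172 for the HES1 line, the order kept for every later pair of signals, 2.64-fold higher (log2 difference 1.40, technical error 0.20). Snhg16 was 13583 and 29975 at its brightest probe, 2.21-fold higher (1.14). The second Snhg16 probe read 1568 and 1242, a difference of -0.34, so the 2 probes of this gene did not go the same way. Snhg12 was 10581 and 19803 (0.90), Snhg7 was 4085 and 6612 (0.69), and Snhg10 and Snhg6 differed by 0.58 each. The remaining hosts were closer to 0, from 0.26 for Snhg1 and 0.14 for Snhg5 to -0.13 for Snhg3, -0.16 for Dancr and -0.21 for Snhg18.

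The small structural RNAs were flat. All 8 on the array were measured on both arrays and their median difference was 0.01. None passed 2-fold, where 10.0% of all measured features were higher and 5.67% lower. Rmrp, the cartilage-hair hypoplasia RNA, was 1050 and 1054 (0.01, technical error 0.20). Terc, the template of telomerase, was 89.9 and 103 (0.20), and Rnu12, the U12 RNA of the minor spliceosome, was 21886 and 20942 (-0.06). Rnu1b6 of the U1 particle differed by 0.14, Rnu3b1 by 0.16, Rnu2-10 by -0.43, and the nucleolar RNAs Snora74a and Snora47 by 0.01 and -0.27. Many of these RNAs lack a poly(A) tail, and how well they were labelled was not tested.

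Of the nuclear body RNAs, Neat1, the scaffold of paraspeckles, was 23642 and 47096. This is 1.99-fold higher and a log2 difference of 0.99 (technical error 0.20), just short of the 2-fold line. Malat1, which marks nuclear speckles, was 6485 and 6156 (-0.08). Neat1 passed 2-fold when the arrays were quantile normalized (1.04), set equal at the median (1.02) or loess corrected (1.18). The neighbouring values on either side of the line were 1.01 for NR_026976 above it, and 0.999 for Gm5166 and 0.996 for NR_038041 below it.

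**Figure D3:**
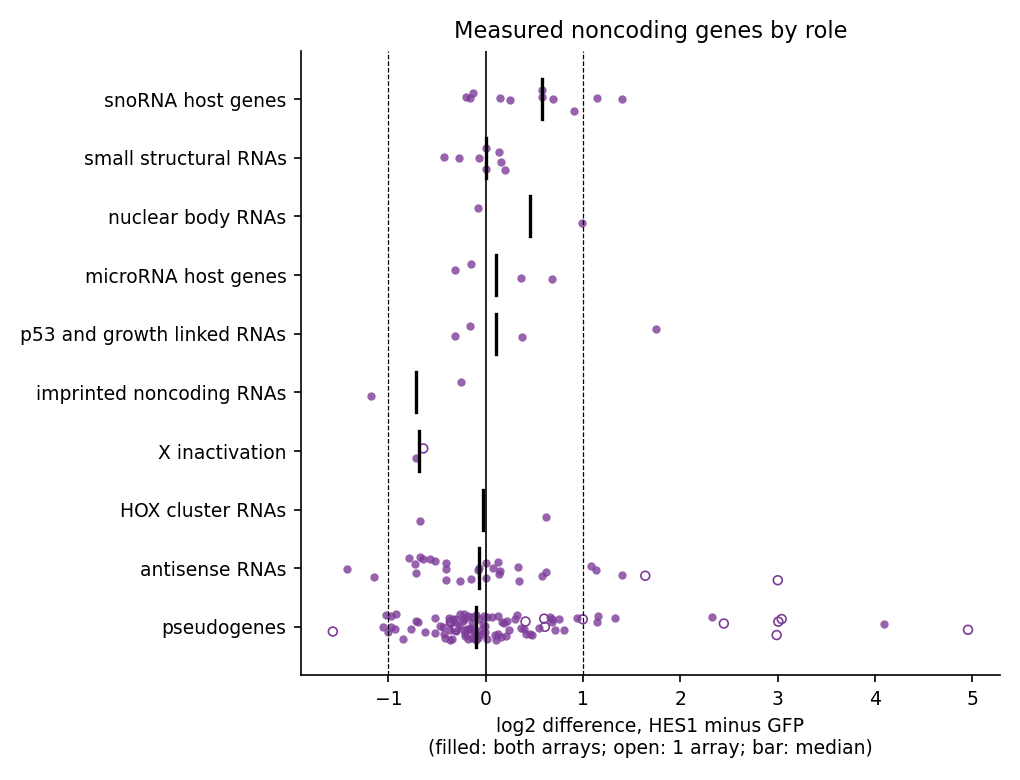
Log2 difference HES1 minus GFP of every measured member of 10 groups (horizontal axis; filled points well above background on both arrays, open points on 1; black bars are medians, dashed lines mark 2-fold). The snoRNA host genes have a median of 0.58, the small structural RNAs sit between -0.43 and 0.20, and pseudogenes span -1.57 to 4.96.

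Among RNAs linked to growth control, only Pvt1 passed 2-fold, and at its brightest probe only. Pvt1 lies beside Myc, the growth-promoting transcription factor gene, and often gains copies together with it in tumours. It was 4361 and 14707 at its brightest probe, 3.37-fold higher (1.75), and 1535 and 2643 at its second probe (0.78). Myc itself was 8859 and 16979, 1.92-fold higher (0.94). Crnde was 373 and 483 (0.37), Tug1 was 1655 and 1483 (-0.16, technical error 0.07), and Mir17hg, the host of a growth-promoting microRNA cluster, was 883 and 708 (-0.32). In all, 1 of 4 measured genes of this list was higher and none lower, where 10.0% of all measured features were higher and 5.67% lower. With 4 genes the count cannot be set apart from that share.

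MicroRNA hosts, imprinted genes and X inactivation genes gave few measured members and 1 call, where 10.0% of all measured features were higher and 5.67% lower. No microRNA gene itself was among the members. Of 8 microRNA hosts 4 were measured and none passed 2-fold, with Mir22hg at 908 and 1455 (0.68), Mir100hg at 308 and 396 (0.36) and Dnm3os at 1144 and 1028 (-0.15). Of 6 imprinted noncoding genes 2 were measured. Mirg, a microRNA-bearing transcript of the imprinted Dlk1-Dio3 region, was 128 and 56.4, 2.27-fold lower (-1.18, technical error 0.35), and Airn, which silences Igf2r from the paternal allele, was 1044 and 875 (-0.25). Meg3, which belongs to the same region as Mirg, was measured on neither array, nor were Kcnq1ot1, Peg13 and Peg3os. Ftx, an activator of Xist, was 251 and 152 (-0.72) with a second probe at 104 and 65.6 (-0.66). Jpx was measured on the GFP array only, and Xist and Firre on neither. The 2 RNAs of the HOX clusters went opposite ways within 2-fold, Hoxa11os at 57.8 and 88.9 (0.62) and Hoxd3os1 at 162 and 102 (-0.67).

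Most measured RNAs named as antisense to a coding gene lay within 2-fold. Of 66 on the array 31 were measured, 5 (16.1%) were higher and 2 (6.45%) lower, with a median of -0.07, against 10.0% and 5.67% of all measured features and a median of -0.08. By bounds 4 were higher and 2 lower, against 8.11% and 4.82% of all features. Chn1os3 was 67.1 and 177 (1.40), while Chn1, which encodes the signalling protein chimaerin, differed by -0.46. Map2k3os was 938 and 2061 (1.14) beside Map2k3, a kinase of the p38 pathway, at 0.01, and Rab10os was 144 and 305 (1.08) beside Rab10 at -0.07. Zfp85os and Zfhx2os were measured on the HES1 array only, at 109 and 72.2, and were at least 2.85-fold and at least 1.89-fold higher, so the latter passed 2-fold in its measured difference only. Dlx6os1, transcribed at the Dlx5 and Dlx6 locus of homeobox genes that act in skeletal development, was 164 and 61.2, 2.68-fold lower (-1.42, technical error 0.33). Dlx6 was 407 and 231 (-0.82) and Dlx5 was 1532 and 1066 (-0.52), while Dlx6os2 was 251 and 316 (0.33). Zfp652os was 227 and 102 (-1.15) beside Zfp652 at -0.55. Igf2os was 382 and 220 (-0.79) beside the growth factor gene Igf2 at -0.70. Has2os was 129 and 193 (0.58) beside Has2, which makes the hyaluronan of cartilage matrix, at 0.85. Mccc1os and Nrg3os differed by -0.73 and -0.72. Over the 25 pairs measured on both arrays, 5 antisense RNAs and 1 partner, Arhgap33 (-1.17), passed 2-fold and no pair did so together. With 1 partner called, at most 1 pair could have done so, and the lack of overlap cannot show that the pairs differ independently. Pearson's r across these pairs was 0.17 and Spearman's rho 0.04, as a description across genes of the same 2 arrays. Dlx6 entered as the partner of both Dlx6os1 and Dlx6os2.

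Transcribed pseudogenes were mostly near 0, and the probes of several may read the parent gene. Of 187 on the array 102 were measured, 10 (9.8%) were higher and 4 (3.92%) lower, shares near the 10.0% and 5.67% of all measured features, with a median of -0.10. By bounds 8 were higher and 3 lower, against 8.11% and 4.82% of all features. H2-K2, a pseudogene among the class I histocompatibility genes, was 8735 in GFP and 149467 in HES1, 17.1-fold higher (4.10, technical error 0.20), and its second probe read 5506 and 105040 (4.25). The coding class I gene H2-K1, which presents peptides to T cells, was 15201 and 344339 (4.50). The files do not give probe sequences, so how far H2-K2 probes bind H2-K1 was not tested. BC021767 was measured on the HES1 array only, at 578 against 18.6, at least 15.1-fold higher, and the nearest coding gene, Tuft1, was 717 and 1507 (1.07). Gm11517 was 68.1 and 343, 5.03-fold higher (2.33). Speer5-ps1 was at least 4.25-fold higher at 1 of 3 probes, and the other 2 probes were at background. Mcpt-ps1 was at least 2.25-fold higher, while the bound of Gm18852 was 1.99-fold.

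Of the 4 pseudogenes that were lower, 3 were measured on both arrays and lay close to the 2-fold line. BC025920 was 559 and 270 (-1.05) at its brightest probe and 380 and 259 (-0.56) at the second, beside Tle6, a relative of the Groucho corepressors that HES proteins recruit, at -1.55. The differences of 6330549D23Rik and Ppp4r1l-ps were -1.02 and -1.01, and that of Gm3219, measured on the GFP array only, was -1.57 with a bound of -0.44. Gm5643 at 42079 and 21424 and Gm5176 at 21036 and 10714 were just inside the line at -0.97 each. For 13 pseudogenes with a parent gene in their name and both measured on both arrays, r was 0.46 and rho 0.73. Pisd-ps1, Pisd-ps2 and Pisd-ps3 share the parent Pisd, so these pairs are not all separate. Hmgb1-rs17 was 27260 and 14408 (-0.92) and Hmgb1, a chromatin protein gene, 51773 and 26518 (-0.97). Hmga2-ps1 was 879 and 869 (-0.02) while Hmga2, another chromatin protein gene, was 760 and 2396 (1.66).

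Members annotated as lncRNA made up 343 of the 498 measured members. This type includes RNAs already counted above by role, such as those named as antisense, so the counts overlap. Of the 343, 55 (16%) were higher and 18 (5.25%) lower, against 14.1% and 4.42% of all measured members and 10.0% and 5.67% of all features. Morrbid, which regulates its neighbour Bcl2l11 and the lifespan of short-lived myeloid cells, was 111 in GFP and 1786 in HES1, 16.1-fold higher (4.01, technical error 0.24). Bcl2l11, which encodes the pro-apoptotic protein Bim, was 139 and 99.4 (-0.48). Acoxl, on the other side, was measured on the HES1 array only with a bound of 1.51 on the log2 scale. NR_033577, which the gene table did not name, was 119 and 1874 (3.98). 9330179D12Rik overlaps Ccnd2, the gene of cyclin D2, and was 76.6 and 880, 11.5-fold higher (3.52). Ccnd2 was 1241 and 8052, 6.49-fold higher (2.70).

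BC051226 begins 267 bases from the start of Daxx and runs the other way. It was 1762 and 10197, 5.79-fold higher (2.53, technical error 0.20), and Daxx, a histone chaperone and regulator of cell death that interferon induces, was 11445 and 101810, 8.90-fold higher (3.15). 4933412E12Rik has the same arrangement with Rab3ip, with starts 109 bases apart. It was 1536 and 7313, 4.76-fold higher (2.25), but Rab3ip differed by 0.00. Of these 2 pairs, both genes were past 2-fold in the first and the noncoding gene alone in the second. 4933433H22Rik was 100 and 509 (2.35), 4931408D14Rik was 75.8 and 354 (2.23), 1110046J04Rik was 3080 and 8126 (1.40), Gm11696 was 256 and 668 (1.38) and 1700042G15Rik was 52.7 and 137 (1.38).

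**Figure D4:**
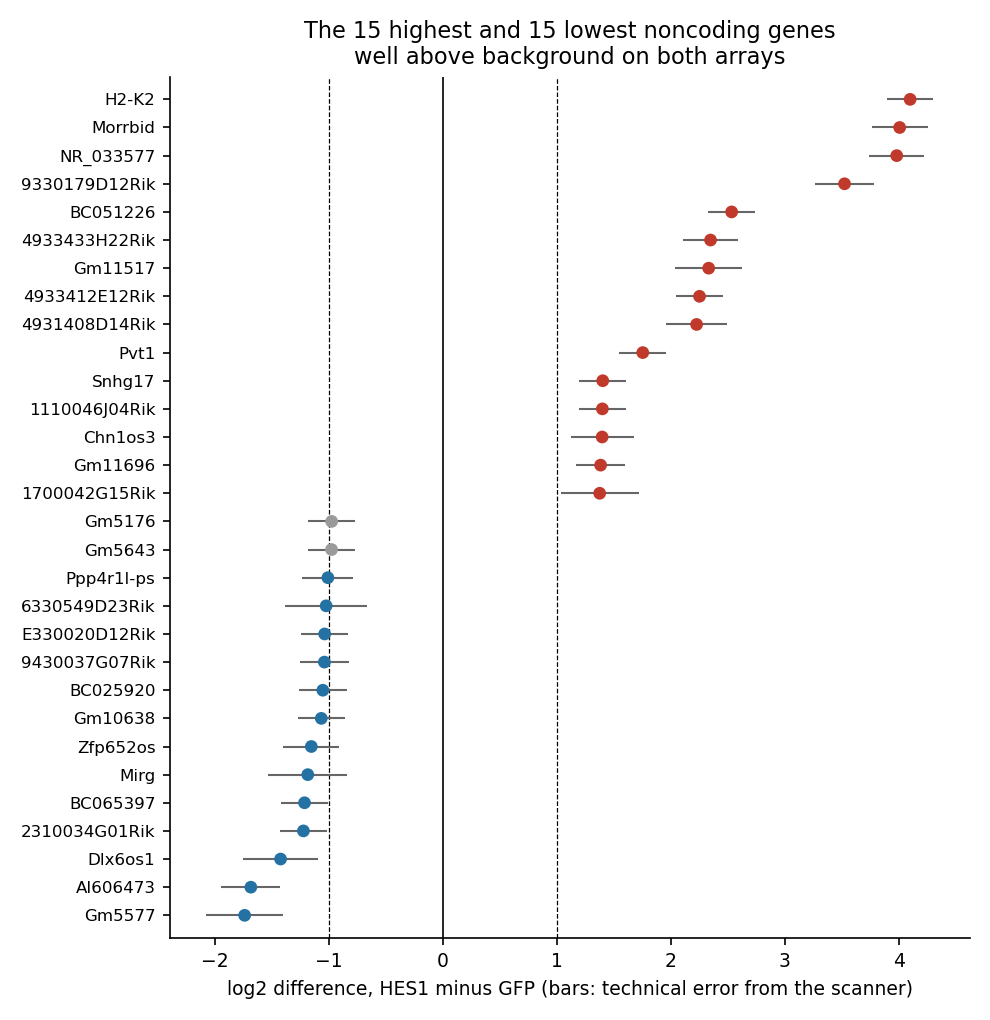
Log2 difference HES1 minus GFP (horizontal axis) of the 15 highest and 15 lowest noncoding genes well above background on both arrays; horizontal bars are the technical error derived from the scanner's error per spot, with 1 array per line, and dashed lines mark 2-fold. The highest, H2-K2, is at 4.10 and the lowest, Gm5577, at -1.74, so the higher side reaches further than the lower side.

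A further group was seen only on the HES1 array. Platr26, named for its link to pluripotency, read 400 and 331 at its 2 probes there and 8.87 and 9.31 on the GFP array, at least 10.5-fold higher at the brightest probe. AW011738 read 248 on the HES1 array and 12.4 on the GFP array, at least 6.50-fold higher, with a second probe at background on both arrays. It overlaps Perm1, a regulator of muscle metabolism, measured on the HES1 array only with a log2 bound of 2.27, and lies next to Isg15, a ubiquitin-like interferon-induced gene at 1116 and 248909 (7.80). 5830428M24Rik was at least 4.81-fold, 4933422A05Rik at least 4.44-fold, F730043M19Rik at least 4.33-fold and Gm11627 at least 4.24-fold higher. F730043M19Rik starts 100 bases from Atxn7l1, which differed by 1.15.

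The lower side was shallower. Gm5577, which starts 201 bases from the linker histone gene H1f10 and runs the other way, was 197 and 59.2, 3.33-fold lower (-1.74, technical error 0.34), and H1f10 was 2180 and 1010 (-1.11). AI606473, with its start 261 bases from that of Lhx8, a LIM homeobox gene of neurons and teeth, was 288 and 89.9, 3.21-fold lower (-1.68), and Lhx8 was 796 and 328, 2.42-fold lower (-1.28). 2310034G01Rik was 1305 and 560 (-1.22) with a second probe at -0.93, and BC065397 was 746 and 322 (-1.21) with a second probe at -0.73. Gm10638, 9430037G07Rik and E330020D12Rik lay between -1.06 and -1.03.

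Of the members seen only on the GFP array, Gm8883 read 306 there and 10.7 on the HES1 array, at least 7.85-fold lower. 1700042O10Rik read 89.3 and 32.7, at least 2.29-fold lower, and overlaps Ddc, the dopa decarboxylase gene, which was also measured on the GFP array only. The bounds of Gm10549, Pmis2, 4930568E12Rik and D330041H03Rik stayed under 2-fold although their measured differences did not. Gm10549 overlaps Nrep, a gene linked to tissue repair, which was 2892 and 436, 6.63-fold lower (-2.73).

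All nearest coding genes were then counted, not only those named above. The nearest coding gene on the array was found for each member placed by the gene table, and 304 pairs were measured on both arrays. Pearson's r of the differences was 0.16 and rho 0.12, against 0.27 and 0.12 for 9825 coding genes and their nearest coding gene. The r of the members rested largely on 2 pairs, chosen after their values were seen. It was 0.12 without BC051226 and Daxx, and 0.08 without 9330179D12Rik and Ccnd2 as well, where rho was 0.11. Among 23 members that were higher, 2 neighbours (8.7%) were higher and none lower, with a neighbour median of 0.01. For 662 coding genes that were higher, 125 neighbours (18.9%) were higher. Among 10 members that were lower, 3 neighbours (30%) were lower and none higher, with a neighbour median of -0.73. For 443 coding genes that were lower, 31 neighbours (7%) were lower. With 10 members the 30% is imprecise, and it rests on 3 pairs, Gm5577 with H1f10 and AI606473 with Lhx8 among them. The background among the members themselves was the 271 within 2-fold, of whose neighbours 15 (5.54%) were higher and 12 (4.43%) lower, with a median of -0.11. In 44 pairs with starts facing away from each other and within 1000 bases, r was 0.58 and rho 0.26, against 0.37 and 0.21 in 955 coding pairs, and without BC051226 and Daxx, left out after their values were seen, r was 0.34 and rho 0.21. These values describe genes on the same 2 arrays, where both members of a pair share the RNA and the scaling, and no test was made.

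**Figure D5:**
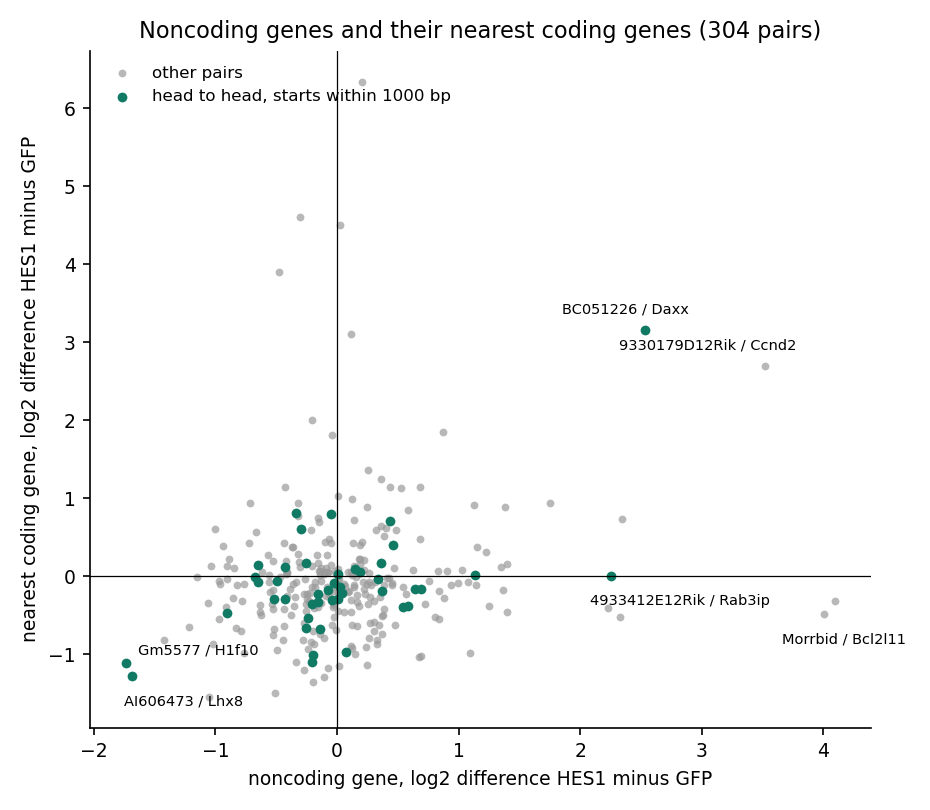
Log2 difference of the nearest coding gene (vertical axis) against that of the noncoding gene (horizontal axis) in 304 pairs measured on both arrays; green points are the 44 pairs that start head to head within 1000 bases. BC051226 with Daxx and 9330179D12Rik with Ccnd2 stand at the upper right, Gm5577 with H1f10 and AI606473 with Lhx8 at the lower left, and the neighbours of Morrbid and 4933412E12Rik lie at -0.48 and 0.00.

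The members with the highest signal on the GFP array were Rn28s1, Rn4.5s, pseudogenes and 1 RNA with no name in the table, and none passed 2-fold. Rn28s1, the large ribosomal RNA, was 443229 and 410835 (-0.11) and Rn4.5s was 614738 and 505296 (-0.28). NR_003278 differed by -0.01, and the pseudogenes Gm12070, Gm10653, Gm5523, Gm6548 and Gm8580 by -0.47 to -0.10. In all, 61 members had no name, of which 40 were measured, 4 (10%) were higher and none lower, against 10.0% and 5.67% of all features. By annotated type, the 544 members not measured were 436 lncRNAs, 85 transcribed pseudogenes, 2 antisense RNAs and 21 with no name. RNAs counted above as antisense by their name, such as Arhgap20os, can carry the lncRNA type and are then counted there. For the 544 the arrays give no direction.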

How the data were processed

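Per the file headers, each scanner file holds a spot intensity from Agilent Feature Extraction (version 10.10.1.1, also in the submitters' processing notes). The deposited value table holds the same processed intensity values times 1 factor per array. Per the file headers, the annotation build is mm9 and both arrays lay on 1 slide. Here log2 of the processed signal was taken minus each array's 75th percentile over 59305 non-control spots. Spots with a feature or background outlier flag on either array (1053) were left out, which kept 54948 of 55681 probes, and spots of a probe were averaged.

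Each gene took the value of its brightest measured probe. Of 1078 NR_ accessions 1016 were named through a RefSeq gene table (GRCm38.p6), and the 62 without a name were kept, although a coding form could not be looked up for them. That table gives no strand for a gene, so the nearest coding gene was found by the gap between gene bodies, in place of the planned distance between start sites; orientation comes from the promoter table.

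A call is a measured difference of at least 2-fold. No test was run, since a group is 1 array, and precision is limited by that number. The technical error combines the scanner's processed-signal errors. Named genes were the 15 highest and 15 lowest differences seen on both arrays, 8 bounds in each direction, the 8 brightest on GFP and measured members of the role lists, with 6 each way for antisense RNAs and pseudogenes; some others near the 2-fold line or beside a named gene were added after their values were seen. The members and lists were chosen with earlier results of these data known. Alternatives were quantile, median and loess scaling (span 0.3), the deposited values, normexp (offset 50) on median signals with quantile normalization, other filters and probe rules, thresholds of 1.5-fold and 3-fold, bounds and membership. The steps were checked on data with known shifts. Python 3.11.15, numpy 2.4.6, pandas 2.3.3, matplotlib 3.10.9, R 4.3.3 and limma 3.58.1 were used.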

Additional observations from a re-analysis of the deposited data

How the results depend on the processing

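Each line has 1 array, so no array could be left out. No paired analysis was possible because each group holds a single sample. The counts of 70 higher and 22 lower members stayed within 1.5 times under quantile, median and loess scaling (65 to 76 higher, 16 to 28 lower), the deposited values, other probe rules, outlier spots kept, bounds and both changes of membership, and the median log2 difference stayed within 0.22 of 0.01 under every alternative. Loess scaling shifted the median of all measured genes by 0.13. The counts moved under 5 alternatives. With normexp on median signals and quantile normalization they were 20 and 2 (90.9% of calls higher, against 76.1%); its offset of 50 compresses dim signals by construction. Requiring both arrays gave 33 and 13 of 419 members, and no filter on dim probes 120 and 43 of 1042. A 1.5-fold threshold gave 112 and 65, and a 3-fold threshold 38 and 7. No named member changed sign from a called value under any alternative. Of 50 called named members, 29 fell under 2-fold with normexp, Gm5577 (-0.82), AI606473 (-0.97), Dlx6os1 (-0.54) and Mirg (-0.49) among them, and 6 with loess scaling, 7 by bounds, 3 with the median over probes and 2 with median scaling. The median over probes brought Snhg16 to 0.40. Loess scaling brought Snhg12 to 1.06. Low signal limits the 79 members measured on 1 array, which have only bounds, and the 544 not measured.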

Other observations

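In all, 9 of the noncoding genes lost every spot to an outlier flag, in each case for the local background and not for the spot itself, and 5 of them had been called above background by the scanner. Lockd, a lncRNA downstream of the cell cycle inhibitor gene Cdkn1b, was 33304 in GFP and 13562 in HES1, 2.46-fold lower (log2 difference -1.30, technical error 0.20), while Cdkn1b was 18345 and 12562 (-0.55). The transcribed pseudogene A930017M01Rik was 566 and 92.1, 6.15-fold lower (-2.62). Of the other measured genes in this group, 0610009L18Rik differed by -0.13, 2210416O15Rik by -0.31 and NR_027897 by 0.48. With these spots kept, an alternative chosen after seeing the data, the counts over 503 measured members were 70 higher and 24 lower.

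Of the 16 genes with both an NR_ probe and a coding form, 12 were measured at these probes and none passed 2-fold, where 10.0% of all measured features were higher and 5.67% lower. Their median was -0.24, against -0.08 for all measured features. The extremes were Zfp207 at 0.99, on the HES1 array only, and Zfp672, at 1595 and 947 (-0.75). Bmp1, a protease that processes procollagen, was 1575 and 1169 (-0.43).

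Measured probes lay over 1 log2 unit apart in 4 members. AI854703 had probes at 1.33 and 0.31. Gm4759 had probes at 3.16, on the HES1 array only, and 0.21. Snhg16 (1.14 and -0.34) and NR_026976 (1.01 and -0.09) each had 1 probe past 2-fold and 1 probe below 0.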
